A study of Mus musculus with 121 samples.

Results

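The genes described here are the cholinergic genes Chat, Slc18a3, Slc5a7 and Ache and the nicotinic receptor genes Chrna3, Chrna4, Chrna5, Chrna6, Chrnb2 and Chrnb3. They were chosen by symbol in the table of raw counts, and all 10 were found among its 24412 genes. They were followed over 3 brain regions, 2 Cre models and 3 genotypes.

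RNA-seq was run on prefrontal cortex (PFC), striatum (STR) and substantia nigra (SN) of male mice on a mixed 129Ola/ICR/C57bl6 background that carried a conditional allele meant to raise endogenous GDNF (GDNF cKU). In GDNF cKU x Nestin-Cre mice (21 mice, 56 libraries) tissue was taken at 2 months without treatment. In GDNF cKU +AAV-Cre mice (22 mice, 65 libraries) AAV-Cre was injected into both striata at 3 to 5 months, and tissue was taken at 5 to 7 months. Littermates with no (WT), 1 (HET, wt/cKU) or 2 (HOM, cKU/cKU) conditional alleles were compared within each model and region, and HET and HOM share the same WT libraries. The Nestin-Cre groups held 8 WT, 6 HET and 4 HOM libraries in PFC, and 6 WT, 7 HET and 6 HOM in each of STR and SN. The AAV-Cre groups held 7 WT, 7 HET and 8 HOM libraries in PFC and in SN, and 7 of each in STR. Every AAV-Cre mouse, WT included, received the virus. Nestin-Cre acts across the central nervous system from mid-gestation, whereas AAV-Cre acts in the adult around the injected site. The models differ in age, Cre route and injection, so a difference in level between them cannot be told apart from these. Regions were dissected from 2-mm slices, so neighbouring tissue can enter a library. Total counts ran from 9869584 to 26750905 per library, with a median of 17885830. Levels are given as cpm, the counts scaled to the library total, and as cpm per kilobase of annotated exon where genes are set against each other. Means carry the SD over libraries.

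Acetylcholine is made by choline acetyltransferase (Chat), loaded into vesicles by the vesicular transporter Slc18a3 and broken down by acetylcholinesterase (Ache), after which choline is taken back up by the transporter Slc5a7. In the striatum it comes mainly from sparse interneurons, and in the cortex mainly from axons of the basal forebrain. Nicotinic receptors are cation channels built of several subunits: those with Chrna4 and Chrnb2 are widespread in brain, those with Chrna6 and Chrnb3 are known from midbrain dopamine neurons, and Chrna3 and Chrna5 are prominent in the habenula and interpeduncular nucleus.

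Gdnf, the gene that the allele changes, was read first as a check of the labels. By the design of the study the recombined allele makes a transcript that ends early with a short 3' untranslated region, so counts over the annotated exons, native 3' end included, check the labels only in part. In AAV-Cre STR the lowest, median and highest Gdnf levels were 5.45, 6.74 and 7.45 cpm in WT, 6.46, 7.37 and 9.42 cpm in HET and 7.71, 8.67 and 9.98 cpm in HOM. All 7 HOM libraries lay above all 7 WT libraries, and HET libraries overlapped both groups. The log2 difference from WT was 0.20 (SE 0.0941) in HET, with 5 of 7 libraries over the mean of WT, and 0.40 (SE 0.0938) in HOM, with 7 of 7. Neither passed the test used throughout, edgeR quasi-likelihood with Benjamini-Hochberg adjustment over all genes of the fit, in which a gene was called at an adjusted p under 0.1 (adjusted p = 1.00 and 0.504).

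In Nestin-Cre STR, Gdnf was at 5.69 ± 1.15 cpm in WT, 6.20 ± 1.71 cpm in HET and 7.04 ± 1.40 cpm in HOM, with overlapping ranges. The log2 difference from WT was 0.07 in HET, with 3 of 7 libraries over the mean of WT, and 0.28 in HOM, with 6 of 6 (adjusted p = 0.850 and 0.784, edgeR quasi-likelihood, Benjamini-Hochberg). Elsewhere the gene was near or under 1 cpm: WT, HET and HOM means were 0.4663, 0.411 and 0.245 cpm in Nestin-Cre PFC and 0.429, 0.654 and 0.694 cpm in Nestin-Cre SN. The same means were 0.823, 1.02 and 0.849 cpm in AAV-Cre PFC and 0.336, 0.483 and 0.501 cpm in AAV-Cre SN. Of these groups only AAV-Cre PFC passed the filter on low counts, with log2 differences of 0.30 in HET (5 of 7 libraries over the mean of WT) and 0.12 in HOM (3 of 8), and neither was called (adjusted p = 0.773 and 0.912, edgeR quasi-likelihood, Benjamini-Hochberg).

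A mouse has conflicting labels: N_PFC_WT_4575 is labelled WT, whereas N_STR_HOM_4575 and N_SN_HOM_4575, which bear the same mouse number, are labelled HOM. These libraries were kept as labelled, and values without them are given where a result rests on them.

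The dissected regions carried the markers of their labels. Over WT libraries, 10 striatal projection neuron markers summed to 694 ± 176, 11427 ± 972 and 321 ± 52.6 cpm in Nestin-Cre PFC, STR and SN, and to 1237 ± 457, 9251 ± 871 and 468 ± 264 cpm in AAV-Cre. The 13 midbrain dopamine neuron markers summed to 100.2 ± 14.4, 113 ± 36.6 and 4366 ± 618 cpm in Nestin-Cre and 87.6 ± 14.2, 80.0 ± 19.8 and 4342 ± 1015 cpm in AAV-Cre. All 13 averaged at least 1 cpm in SN, where the dopamine transporter Slc6a3 was the most abundant, while Foxa2 had no count in WT PFC or STR of either model. The 8 cortical excitatory neuron markers summed to 2110.4 ± 106, 166 ± 132 and 129 ± 113 cpm in Nestin-Cre and 1909 ± 139, 72.6 ± 19.1 and 152 ± 88.9 cpm in AAV-Cre. The 5 markers of thalamic and midbrain excitatory neurons summed to 77.7 ± 30.1, 25.1 ± 10.8 and 558 ± 113 cpm in Nestin-Cre and 52.1 ± 29.0, 32.4 ± 18.9 and 577 ± 118 cpm in AAV-Cre. Each set was thus highest in the region it marks. Neighbouring tissue varied between libraries: 4 olfactory bulb markers ran from 13.1 to 226 cpm over Nestin-Cre PFC WT libraries, and 5 choroid plexus markers, led by Ttr, from 82.5 to 8053 cpm over AAV-Cre STR WT libraries.

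Markers of cholinergic cells were also unequal between regions. The 10 markers of striatal and basal forebrain cholinergic neurons summed to 29.8 ± 4.68, 177 ± 16.0 and 139 ± 16.2 cpm in Nestin-Cre WT PFC, STR and SN, and to 51.3 ± 16.4, 185 ± 11.2 and 158 ± 19.4 cpm in AAV-Cre. Within them Lhx8, a transcription factor of forebrain cholinergic neurons, was at 0.401, 12.4 and 0.0625 cpm in Nestin-Cre and 1.27, 12.8 and 0.152 cpm in AAV-Cre, whereas Slc10a4, which was also high outside the forebrain, reached 0.921, 21.2 and 96.9 cpm and 3.03, 18.8 and 113 cpm. Of the cranial motor neuron markers, Prph was at 0.811, 0.270 and 11.4 cpm in Nestin-Cre and 0.768, 0.339 and 10.9 cpm in AAV-Cre. Isl1 is shared with the forebrain list, Phox2a and Tbx20 averaged under 1 cpm in every WT group, and Mnx1 had no count in any WT group. The 5 habenula markers summed to 81.5 ± 6.88, 28.7 ± 7.03 and 76.9 ± 18.8 cpm in Nestin-Cre and 72.1 ± 10.2, 18.5 ± 4.73 and 86.4 ± 17.3 cpm in AAV-Cre, with Nwd2 the most abundant in PFC and SN. As PFC held about as much of them as SN, their sum does not mark habenula tissue alone, here and below.

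Per kilobase of exon, Ache was the most abundant member in WT of every region and both models. In Nestin-Cre PFC the order was Ache (24.6 ± 3.19 cpm per kb), Chrnb2 (13.0 ± 0.773), Chrna4 (12.5 ± 1.13) and Chrna5 (1.43 ± 0.2004), with the other 6 members under 1 cpm per kb. Ranges of Chrnb2 and Chrna4 overlapped, as did those of neighbours among the 6 lowest. In Nestin-Cre STR, Ache (42.0 ± 5.49 cpm per kb) was followed by Chrnb2 (11.2 ± 0.872), Chat (10.3 ± 1.02) and Slc5a7 (10.2 ± 0.911), whose ranges overlapped, and then by Slc18a3 (5.42 ± 1.38) and Chrna4 (3.20 ± 0.575). In Nestin-Cre SN, Ache (75.0 ± 7.86 cpm per kb) and Chrna6 (68.8 ± 11.2) overlapped, followed by Chrna4 (30.8 ± 8.93), Chrnb3 (15.0 ± 3.82) and Chrnb2 (15.0 ± 2.85). The 3 least abundant members there were Slc5a7 (0.761 ± 0.387), Chat (0.415 ± 0.201) and Slc18a3 (0.116 ± 0.0810).

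The AAV-Cre model gave nearly the same order. In PFC, Ache (26.8 ± 3.29 cpm per kb) came before Chrnb2 (12.9 ± 0.721) and Chrna4 (10.5 ± 1.58), but Chat (1.648 ± 0.741) and Slc5a7 (1.28 ± 0.642) overlapped Chrna5 (0.958 ± 0.382) there. In STR the values were 49.7 ± 4.002 cpm per kb for Ache, 13.0 ± 0.446 for Chrnb2, 12.5 ± 0.902 for Chat, 10.2 ± 0.809 for Slc5a7 and 5.69 ± 0.666 for Slc18a3. In SN, Ache (114 ± 11.3 cpm per kb) stood clear of Chrna6 (55.5 ± 14.3) and Chrna4 (44.1 ± 9.30), which overlapped. Chrna6 averaged the least of the members in PFC and STR of both models, at 0.0768 ± 0.0417 and 0.0234 ± 0.0315 cpm per kb in Nestin-Cre PFC and STR and 0.0523 ± 0.0550 and 0.00288 ± 0.00763 in the AAV-Cre model. Its range overlapped that of the next lowest member in each of these groups.

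Between regions of WT mice most members differed, as did most genes. A member was counted in a comparison only where it reached the level of the filter, 1 cpm in 3 or more WT libraries, in both regions. In Nestin-Cre, 5 of 6 such members were called between STR and PFC (3 higher in STR, 2 lower), beside 68.1% of all 14926 genes tested. Between SN and PFC 6 of 8 were called (5 higher in SN, 1 lower), beside 78.8%, and between SN and STR 6 of 6 (4 higher, 2 lower), beside 76.2%. In AAV-Cre the numbers were 5 of 6 (4 higher, 1 lower), 7 of 7 (5 and 2) and 6 of 6 (4 and 2), beside 65.6%, 74.1% and 75.6% of 15043 genes, all by edgeR quasi-likelihood. Of all genes that met the same rule, 68.6%, 79.0% and 76.1% were called for Nestin-Cre, then 65.5%, 74.0% and 75.4% for AAV-Cre, in the order above. Left out of some or all of these counts were Slc18a3, Chrna3, Chrna5, Chrna6 and Chrnb3. Counts of members called therefore do not set them apart from other genes, and the size and direction of each difference are given below. In bulk tissue, fewer cells and less RNA per cell cannot be told apart.

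Chat, Slc18a3 and Slc5a7 were highest in STR in both models. Chat was at 0.884, 1.53 and 2.61 cpm (lowest, median and highest WT library) in Nestin-Cre PFC, 25.9, 29.2 and 33.9 cpm in STR and 0.532, 1.21 and 1.88 cpm in SN. For Chat the AAV-Cre WT values were 1.47, 4.46 and 7.38 cpm in PFC, 31.8, 35.4 and 38.1 cpm in STR and 0.684, 1.16 and 3.13 cpm in SN. Every STR library lay above every PFC and SN library, while PFC and SN overlapped. Chat was higher in STR than in PFC by log2 4.16 (SE 0.218) in Nestin-Cre and 2.90 (SE 0.247) in AAV-Cre (adjusted p = 4.98e-13 and 8.75e-10, edgeR quasi-likelihood, Benjamini-Hochberg). Its SN level differed from STR by -4.75 (SE 0.257) and -4.63 (SE 0.277) (adjusted p = 4.18e-13 and 9.63e-13, edgeR quasi-likelihood, Benjamini-Hochberg). SN against PFC gave -1.73 (SE 0.299) in AAV-Cre (adjusted p = 2.10e-05) and -0.58 (SE 0.264) in Nestin-Cre (adjusted p = 0.0507, 0.0121 to 0.192 over 26 alternatives, edgeR quasi-likelihood, Benjamini-Hochberg). The Nestin-Cre call was lost when any of 5 libraries was left out: N_PFC_WT_4394 (adjusted p = 0.143), N_PFC_WT_4396 (0.111), N_SN_WT_4329 (0.138), N_SN_WT_4394 (0.192) or N_SN_WT_4529 (0.134), by edgeR quasi-likelihood with Benjamini-Hochberg adjustment.

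The vesicular transporter gene and the choline transporter gene were likewise highest in STR. Slc18a3 was at 0.238, 0.516 and 0.850 cpm (lowest, median and highest WT library) in Nestin-Cre PFC, 9.92, 12.4 and 19.5 cpm in STR and 0.0711, 0.227 and 0.536 cpm in SN. For Slc18a3 the AAV-Cre WT values were 0.646, 1.43 and 2.76 cpm in PFC, 11.2, 14.1 and 15.7 cpm in STR and 0.158, 0.447 and 1.66 cpm in SN. In Nestin-Cre, Slc18a3 reached the level of the filter only in STR, so ratios of pooled counts are given there in place of fitted values. Pooled over Nestin-Cre WT libraries it had 1496 counts in STR, 86 in PFC and 29 in SN. The ratio to STR was 0.0423 (95% counting interval 0.0336 to 0.0525) for PFC and 0.0228 (95% counting interval 0.0152 to 0.0328) for SN, without overlap, and that of SN to PFC was 0.538 (95% counting interval 0.341 to 0.8288), with overlapping ranges. In AAV-Cre it reached that level in STR and PFC, and STR against PFC gave log2 3.08 (SE 0.302), without overlap (adjusted p = 8.65e-09, edgeR quasi-likelihood, Benjamini-Hochberg). Only 1 AAV-Cre SN library reached it, so SN is given by its 76 pooled counts, with a ratio to STR of 0.0423 (95% counting interval 0.0332 to 0.0533), without overlap, and to PFC of 0.370 (95% counting interval 0.278 to 0.488), with overlapping ranges. Counting intervals, here and below, leave out the spread between mice. Slc5a7 was at 1.58, 2.74 and 4.13 cpm (lowest, median and highest WT library) in Nestin-Cre PFC, 48.2, 51.5 and 61.5 cpm in STR and 1.71, 3.46 and 7.68 cpm in SN. For Slc5a7 the AAV-Cre WT values were 2.12, 6.12 and 11.1 cpm in PFC, 46.6, 54.3 and 57.4 cpm in STR and 1.14, 2.27 and 5.32 cpm in SN. Its STR libraries again lay above all others, by log2 4.14 (SE 0.243) and 2.96 (SE 0.270) over PFC, and SN differed from STR by -3.91 (SE 0.270) and -4.53 (SE 0.298) (largest adjusted p 2.66e-09, edgeR quasi-likelihood, Benjamini-Hochberg). Between SN and PFC, which overlapped, Slc5a7 was not called in Nestin-Cre, at 0.23 (SE 0.265), and was called in AAV-Cre, at -1.57 (SE 0.319) (adjusted p = 0.432 and 1.43e-04, edgeR quasi-likelihood, Benjamini-Hochberg).

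Ache, which encodes the enzyme that ends the signal, had another order, lowest in PFC and highest in SN. Ache was at 43.6, 53.2 and 64.9 cpm (lowest, median and highest WT library) in Nestin-Cre PFC, 74.5, 94.3 and 109.7 cpm in STR and 140.0, 165 and 193 cpm in SN. For Ache the AAV-Cre WT values were 45.3, 60.5 and 67.8 cpm in PFC, 97.9, 108 and 121 cpm in STR and 212, 253 and 288 cpm in SN. No ranges of the 3 regions overlapped in either model. STR exceeded PFC by log2 0.74 (SE 0.0932) in Nestin-Cre and 0.85 (SE 0.0783) in AAV-Cre, and SN exceeded STR by 0.68 (SE 0.0999) and 1.15 (SE 0.0771) (largest adjusted p 2.93e-06, edgeR quasi-likelihood, Benjamini-Hochberg). SN against PFC gave 1.42 (SE 0.0931) and 1.99 (SE 0.0797) (largest adjusted p 9.72e-12, edgeR quasi-likelihood, Benjamini-Hochberg). Chat and Ache therefore differed between STR and SN in opposite directions.

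**Figure D1:**
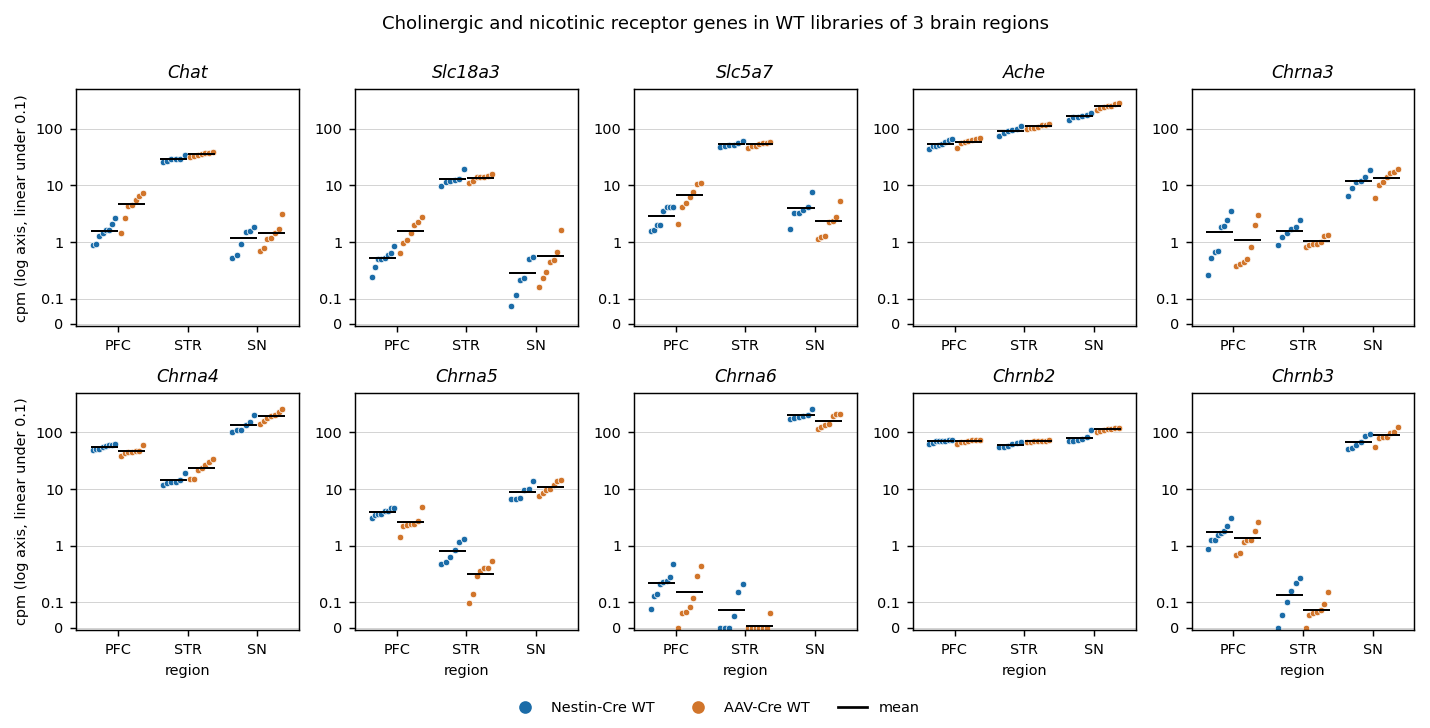
Levels of the 10 members in WT libraries of PFC, STR and SN in both models, in cpm. Each point is a library.

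All 6 receptor subunit genes averaged highest in SN. Chrna4 was at 48.1, 56.4 and 62.1 cpm (lowest, median and highest WT library) in Nestin-Cre PFC, 12.0, 13.3 and 19.1 cpm in STR and 101, 123 and 206 cpm in SN. For Chrna4 the AAV-Cre WT values were 38.3, 45.5 and 60.9 cpm in PFC, 15.0, 23.9 and 33.5 cpm in STR and 139, 196 and 260.4 cpm in SN. SN lay above PFC and PFC above STR without overlap. The log2 differences were -1.99 (SE 0.154) and -1.04 (SE 0.166) for STR against PFC and 1.12 (SE 0.139) and 1.98 (SE 0.162) for SN against PFC, Nestin-Cre first (largest adjusted p 1.14e-05, edgeR quasi-likelihood, Benjamini-Hochberg). SN exceeded STR by 3.11 (SE 0.165) and 3.01 (SE 0.170) (largest adjusted p 3.53e-13, edgeR quasi-likelihood, Benjamini-Hochberg). Chrnb2 was at 63.4, 70.6 and 74.7 cpm (lowest, median and highest WT library) in Nestin-Cre PFC, 55.2, 60.5 and 67.2 cpm in STR and 69.3, 75.1 and 110.0 cpm in SN. For Chrnb2 the AAV-Cre WT values were 63.0, 69.6 and 73.9 cpm in PFC, 66.8, 69.7 and 74.4 cpm in STR and 103, 113 and 122 cpm in SN. This partner subunit varied least between regions. Its SN libraries lay above STR in both models, at 0.26 (SE 0.0979) and 0.64 (SE 0.0481), and above PFC in AAV-Cre, at 0.61 (SE 0.0483) (largest adjusted p 0.0224, edgeR quasi-likelihood, Benjamini-Hochberg). STR against PFC was called in Nestin-Cre with overlapping ranges, at -0.24 (SE 0.0919) (adjusted p = 0.0282, 0.00222 to 0.128 over 26 alternatives, edgeR quasi-likelihood, Benjamini-Hochberg), and this call was lost without N_STR_WT_4326 (log2 -0.17, adjusted p = 0.128). SN against PFC in Nestin-Cre, at 0.02 (SE 0.0914), and STR against PFC in AAV-Cre, at -0.03 (SE 0.0486), were not called (adjusted p = 0.853 and 0.566, edgeR quasi-likelihood, Benjamini-Hochberg).

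Chrna3 and Chrna5, neighbours on chromosome 9, shared the SN peak but parted in PFC and STR. Chrna3 was at 0.257, 1.28 and 3.59 cpm (lowest, median and highest WT library) in Nestin-Cre PFC, 0.875, 1.57 and 2.41 cpm in STR and 6.52, 11.6 and 18.7 cpm in SN. For Chrna3 the AAV-Cre WT values were 0.372, 0.508 and 2.97 cpm in PFC, 0.834, 0.935 and 1.33 cpm in STR and 5.88, 14.1 and 19.6 cpm in SN. SN libraries lay above all libraries of both other regions. In Nestin-Cre the log2 difference of SN was 2.82 (SE 0.381) from PFC and 2.74 (SE 0.418) from STR, and in AAV-Cre 3.68 (SE 0.353) from STR (largest adjusted p 5.04e-06, edgeR quasi-likelihood, Benjamini-Hochberg). STR and PFC overlapped in both models, and in Nestin-Cre they did not differ by the test, at 0.09 (SE 0.413) (adjusted p = 0.869, edgeR quasi-likelihood, Benjamini-Hochberg). In AAV-Cre PFC only 2 of 7 WT libraries reached the level of the filter, so pooled counts are given there: SN exceeded PFC 11.7-fold (95% counting interval 9.74 to 14.3), and the ratio of PFC to STR was 1.12 (95% counting interval 0.868 to 1.45). Olfactory bulb markers summed to 13.1 to 226 cpm over the same Nestin-Cre PFC libraries and 62.1 to 269 cpm in AAV-Cre, and their part in the Chrna3 level was not tested. Chrna5 was at 3.09, 3.87 and 4.68 cpm (lowest, median and highest WT library) in Nestin-Cre PFC, 0.477, 0.730 and 1.33 cpm in STR and 6.68, 8.40 and 13.9 cpm in SN. For Chrna5 the AAV-Cre WT values were 1.45, 2.38 and 4.82 cpm in PFC, 0.0981, 0.364 and 0.544 cpm in STR and 7.67, 10.1 and 14.5 cpm in SN. No ranges overlapped between regions. Chrna5 reached the level of the filter in PFC and SN, and in STR in 2 WT libraries of Nestin-Cre and 0 of AAV-Cre. SN against PFC gave log2 1.02 (SE 0.198) and 1.94 (SE 0.223), Nestin-Cre first (largest adjusted p 9.12e-05, edgeR quasi-likelihood, Benjamini-Hochberg). For STR, ratios of pooled counts are given in place of fitted values, from 97 counts in Nestin-Cre and 41 in AAV-Cre. PFC exceeded STR 4.61-fold (95% counting interval 3.72 to 5.78) and 8.21-fold (95% counting interval 5.90 to 11.7), and SN exceeded STR 10.5-fold (95% counting interval 8.47 to 13.0) and 33.2-fold (95% counting interval 24.3 to 46.5).

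Chrna6 and Chrnb3, the subunits known from dopamine neurons, were nearly confined to SN. Chrna6 was at 0.0720, 0.223 and 0.472 cpm (lowest, median and highest WT library) in Nestin-Cre PFC, 0, 0.0222 and 0.210 cpm in STR and 170.0, 192 and 262 cpm in SN. For Chrna6 the AAV-Cre WT values were 0, 0.0820 and 0.447 cpm in PFC, 0, 0 and 0.0586 cpm in STR and 114, 139 and 209 cpm in SN. Neither reached the level of the filter in STR, and Chrna6 reached it only in SN, so ratios of pooled counts are given in place of fitted values. Pooled over WT libraries, Chrna6 had 19401 counts in SN, 37 in PFC and 8 in STR of Nestin-Cre, and 20933, 16 and 1 in AAV-Cre. SN exceeded PFC 837-fold (95% counting interval 607 to 1189.5) in Nestin-Cre and 1037-fold (95% counting interval 639 to 1815) in AAV-Cre, and exceeded STR 2846-fold (95% counting interval 1444 to 6594) and 20234-fold (95% counting interval 3631 to 799252). PFC and STR libraries overlapped in both models. Chrnb3 was at 0.864, 1.60 and 3.13 cpm (lowest, median and highest WT library) in Nestin-Cre PFC, 0, 0.131 and 0.273 cpm in STR and 51.3, 64.8 and 92.7 cpm in SN. For Chrnb3 the AAV-Cre WT values were 0.698, 1.24 and 2.64 cpm in PFC, 0, 0.0605 and 0.156 cpm in STR and 55.9, 84.4 and 123 cpm in SN. Its pooled counts in STR were 16 and 9. SN exceeded PFC 38.3-fold (95% counting interval 34.0 to 43.3) and 64.3-fold (95% counting interval 54.5 to 76.4), and STR 501-fold (95% counting interval 308 to 878) and 1245-fold (95% counting interval 656 to 2724). Chrnb3, which reached the level of the filter in SN and PFC, was called between them in both models (largest adjusted p 2.61e-14, edgeR quasi-likelihood, Benjamini-Hochberg), and for both genes every SN library lay above every library of the other regions.

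In Nestin-Cre PFC no member was called, although Slc5a7, and Chat at lower counts, lay below the WT mean in every HET and HOM library. Markers of striatal tissue averaged lower in the same groups, with none called. Of 8 members tested (Slc18a3 and Chrna6 lay below the filter), 0 were called in HET and 0 in HOM by edgeR quasi-likelihood with Benjamini-Hochberg adjustment, beside 0% and 0.25% of all 14386 genes (0 and 36 genes). At an unadjusted p under 0.05 there were 2 and 2 members by edgeR quasi-likelihood, beside 9.72% and 10.1% of all genes. DESeq2 called 1 and 0 members (beside 0.806% and 1.58% of all genes) and the edgeR likelihood ratio test 2 and 1 (beside 2.88% and 2.15%). The median log2 difference over members was -0.15 in HET and -0.09 in HOM, beside 0.00 and 0.00 over all genes, with 7 and 5 of 8 members lower.

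Chat was at 0.884, 1.53 and 2.61 cpm (lowest, median and highest) in the 8 WT libraries and 0.252, 0.822 and 1.40 cpm in HET, and at 0.446, 0.821, 1.32 and 0.557 cpm in the 4 HOM libraries. Slc5a7 was at 1.58, 2.74 and 4.13 cpm in WT, 1.08, 1.45 and 2.10 cpm in HET and 1.87, 1.64, 2.30 and 1.11 cpm in the same 4 HOM libraries. Ranges overlapped between WT and each other genotype for both genes. Chat reached 1 cpm in 6 of 8 WT libraries but only in 2 of 6 HET and 1 of 4 HOM libraries, fewer than 3 in either, so its fitted values rest on few counts in these groups. Its pooled counts were 251 in WT, 91 in HET and 45 in HOM, with a ratio to WT of 0.503 (95% counting interval 0.391 to 0.641) in HET and 0.505 (95% counting interval 0.359 to 0.696) in HOM, and with no filter on low counts it was not called either (adjusted p = 0.354 and 0.429, edgeR quasi-likelihood, Benjamini-Hochberg). The log2 differences of HET were -0.95 (SE 0.312; lower than the mean of WT in 6 of 6 libraries; adjusted p = 0.308, 0.0147 to 0.554 over 24 alternatives) for Chat and -0.97 (SE 0.255; lower than the mean of WT in 6 of 6 libraries; adjusted p = 0.188, 0.00105 to 0.404 over 24 alternatives) for Slc5a7, by edgeR quasi-likelihood with Benjamini-Hochberg adjustment. Those of HOM were -0.99 (SE 0.379; lower than the mean of WT in 4 of 4 libraries; adjusted p = 0.360, 0.0783 to 0.674 over 24 alternatives) for Chat and -0.77 (SE 0.299; lower than the mean of WT in 4 of 4 libraries; adjusted p = 0.366, 0.117 to 0.722 over 24 alternatives) for Slc5a7, by the same edgeR quasi-likelihood test with Benjamini-Hochberg adjustment. The edgeR likelihood ratio test called Slc5a7 in HET (adjusted p = 0.00105, Benjamini-Hochberg), as did DESeq2 (adjusted p = 0.0492, Benjamini-Hochberg). The former also called Chat in HET and HOM, the groups in which it lay below 1 cpm in most libraries (adjusted p = 0.0147 and 0.0783, Benjamini-Hochberg). Without the mouse of conflicting labels, whose PFC library had 1.58 cpm of Slc5a7, the HET difference of this gene was -1.05 and was called (adjusted p = 0.0823, edgeR quasi-likelihood, Benjamini-Hochberg). Chrna3 reached 1 cpm in 1 of 4 HOM libraries. The other members gave log2 values in HET of -0.15 (Ache), 0.25 (Chrna3), -0.05 (Chrna4), -0.15 (Chrna5), -0.02 (Chrnb2) and -0.40 (Chrnb3), and in HOM of 0.15 (Ache), -0.52 (Chrna3), 0.04 (Chrna4), -0.17 (Chrna5), -0.01 (Chrnb2) and 0.04 (Chrnb3).

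Several marker lists averaged lower in HET and HOM of this region, and none of their genes was called. The striatal projection neuron markers, led by Ppp1r1b, summed to 694 ± 176 cpm in WT (482 to 1031) and 450.3 ± 81.3 cpm in HET (337 to 563), and to 517, 389, 621 and 324 cpm in the 4 HOM libraries. Of these markers, 10 of 10 were lower in HET and 10 of 10 in HOM, with median log2 -0.71 and -0.62. An unadjusted p under 0.05 by edgeR quasi-likelihood was reached by 10 and 8 of them, beside 9.72% and 10.1% of all genes. Of the forebrain cholinergic neuron markers tested, 6 of 6 were lower in HET and 5 of 6 in HOM (median -0.66 and -0.50, 3 and 3 at this threshold). Oligodendrocyte markers were lower in 10 and 10 of 10 (median -0.41 and -0.41, 10 and 9 at this threshold). The part of any of these in the levels of Chat and Slc5a7 was not tested.

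**Figure D2:**
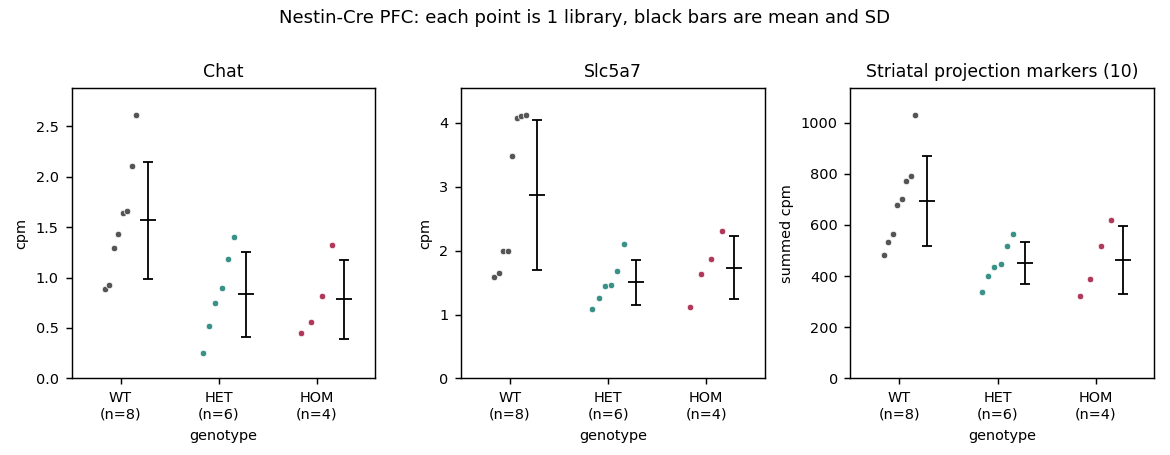
Chat, Slc5a7 and the summed striatal projection neuron markers in Nestin-Cre PFC by genotype, in cpm. Each point is a library.

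In Nestin-Cre STR the fitted log2 difference of HET was below 0 for each member tested, although the mean cpm of Ache and Chrnb2 (log2 -0.05 and -0.02) lay slightly above that of WT, and none was called. Of 8 members tested (Chrna6 and Chrnb3 lay below the filter), 0 were called in HET and 0 in HOM by edgeR quasi-likelihood with Benjamini-Hochberg adjustment, beside 0% and 0% of all 14494 genes (0 and 0 genes). At an unadjusted p under 0.05 there were 4 and 2 members by edgeR quasi-likelihood, beside 17.3% and 4.62% of all genes. DESeq2 called 1 and 0 members (beside 3.69% and 0.00690% of all genes) and the edgeR likelihood ratio test 1 and 0 (beside 8.57% and 1.91%). The median log2 difference over members was -0.33 in HET and -0.28 in HOM, beside 0.01 and 0.01 over all genes, with 8 and 7 of 8 members lower. These counts and medians include Chrna5, which passed the filter through 2 WT libraries and 1 HOM library, and through no HET library.

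Slc18a3 was at 9.92, 12.4 and 19.5 cpm (lowest, median and highest) in WT, 9.35, 10.6 and 11.6 cpm in HET and 10.2, 11.1 and 11.7 cpm in HOM. Slc5a7 was at 48.2, 51.5 and 61.5 cpm (lowest, median and highest) in WT, 32.2, 40.5 and 62.0 cpm in HET and 36.9, 42.5 and 52.7 cpm in HOM. Both genes overlapped between WT and the other genotypes. The log2 difference of HET from WT was -0.37 (SE 0.126; lower than the mean of WT in 7 of 7 libraries; adjusted p = 0.2005, 0.0990 to 0.397 over 25 alternatives) for Slc18a3 and -0.28 (SE 0.125; lower than the mean of WT in 6 of 7 libraries; adjusted p = 0.265, 0.0781 to 0.451 over 25 alternatives) for Slc5a7, by edgeR quasi-likelihood with Benjamini-Hochberg adjustment. The WT mean of Slc18a3 was raised by N_STR_WT_4545, at 19.5 cpm, and the other 5 of 6 WT libraries also lay below it. Without that library the differences of Slc18a3 were -0.21 in HET and -0.12 in HOM (adjusted p = 0.397 and 0.923, edgeR quasi-likelihood, Benjamini-Hochberg). Without N_STR_WT_4612 Slc18a3 was called in HET, at -0.44 (adjusted p = 0.0990, edgeR quasi-likelihood, Benjamini-Hochberg). Without N_STR_HET_4579, which had 39.1 cpm of Chat and 62.0 cpm of Slc5a7, these genes were called in HET, at -0.44 and -0.38 (adjusted p = 0.0781 and 0.0781, edgeR quasi-likelihood, Benjamini-Hochberg), beside 667 of all 14481 genes. The same library stood apart in striatal projection neuron markers, which summed to 11623 cpm in it, to 6769.8 to 9393 cpm in the other HET libraries and to 10527 to 12910.5 cpm in WT, so that every HET library but this lay below all WT libraries. The difference of HOM was -0.30 (SE 0.130; lower than the mean of WT in 6 of 6 libraries; adjusted p = 0.784, 0.427 to 1.00 over 25 alternatives) for Slc5a7 and -0.27 for Slc18a3, by edgeR quasi-likelihood with Benjamini-Hochberg adjustment. Chrna3 ran over 0.875 to 2.41 cpm in WT, 0.968 to 1.38 cpm in HET and 0.851 to 1.62 cpm in HOM, with log2 differences of -0.49 (SE 0.216; lower than the mean of WT in 7 of 7 libraries; adjusted p = 0.266, 0.221 to 0.506 over 25 alternatives) in HET and -0.55 (SE 0.226; lower than the mean of WT in 5 of 6 libraries; adjusted p = 0.784, 0.464 to 1.00 over 25 alternatives) in HOM by edgeR quasi-likelihood with Benjamini-Hochberg adjustment. Chrna5 ran over 0.477 to 1.33 cpm in WT, 0 to 0.573 cpm in HET and 0 to 1.17 cpm in HOM, and WT and HET overlapped only slightly. As no HET library took it past the filter, the ratio of pooled counts is given for it in place of a fitted value: 30 counts in HET against 97 in WT, a ratio of 0.279 (95% counting interval 0.179 to 0.423).

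The remaining log2 values were -0.29 (Chat), -0.05 (Ache), -0.44 (Chrna4) and -0.02 (Chrnb2) in HET and -0.29 (Chat), 0.00 (Ache), 0.05 (Chrna4) and -0.02 (Chrnb2) in HOM. Without the mouse of conflicting labels, 0 members in place of 2 had an unadjusted p under 0.05 in HOM, and 0 were called. Cortical excitatory neuron markers, which like Chrna5 are higher in PFC than in STR, summed to 166 ± 132 cpm in WT, 84.7 ± 46.7 cpm in HET and 171 ± 189 cpm in HOM, and 7 of 8 were lower in HET (median log2 -1.42, 0 called). Striatal projection neuron markers summed to 11427 ± 972, 8583 ± 1689.9 and 10098 ± 1542 cpm in WT, HET and HOM. They were lower in 10 of 10 in HET (median -0.42, 9 with an unadjusted p under 0.05) and 9 of 10 in HOM (-0.19, 0), and none was called. Of all genes, 17.3% in HET and 4.62% in HOM reached this threshold. Forebrain cholinergic neuron markers summed to 177 ± 16.0, 192 ± 42.3 and 165 ± 27.2 cpm in WT, HET and HOM, and 6 and 6 of 10 were lower (median -0.13 and -0.11, 0 and 0 called). The part of these lists in the member levels was not tested.

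In Nestin-Cre SN, Chrna3 and Chrna5 lay below the WT mean in every HET and HOM library, and no member was called. Of 9 members tested (Slc18a3 lay below the filter), 0 were called in HET and 0 in HOM by edgeR quasi-likelihood with Benjamini-Hochberg adjustment, beside 0% and 0% of all 14873 genes (0 and 0 genes). At an unadjusted p under 0.05 there were 1 and 2 members by edgeR quasi-likelihood, beside 8.99% and 4.09% of all genes. DESeq2 called 0 and 0 members (beside 0.0336% and 0.00672% of all genes) and the edgeR likelihood ratio test 0 and 1 (beside 2.23% and 0.8001%). The median log2 difference over members was 0.05 in HET and -0.19 in HOM, beside 0.00 and 0.00 over all genes, with 4 and 6 of 9 members lower.

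Chrna3 was at 6.52, 11.6 and 18.7 cpm (lowest, median and highest) in WT, 5.31, 8.42 and 11.5 cpm in HET and 4.23, 6.63 and 10.4 cpm in HOM. Chrna5 was at 6.68, 8.40 and 13.9 cpm (lowest, median and highest) in WT, 5.56, 7.47 and 8.29 cpm in HET and 3.74, 5.81 and 8.76 cpm in HOM. Ranges overlapped for both genes. The log2 difference of Chrna3 was -0.56 (SE 0.249; lower than the mean of WT in 7 of 7 libraries; adjusted p = 0.518, 0.261 to 0.801 over 25 alternatives) in HET and -0.81 (SE 0.262; lower than the mean of WT in 6 of 6 libraries; adjusted p = 0.892, 0.0841 to 1.00 over 25 alternatives) in HOM, by edgeR quasi-likelihood with Benjamini-Hochberg adjustment. The edgeR likelihood ratio test called it in HOM (adjusted p = 0.0841, Benjamini-Hochberg). That of Chrna5 was -0.58 (SE 0.208; lower than the mean of WT in 6 of 6 libraries; adjusted p = 0.892, 0.594 to 1.00 over 25 alternatives) in HOM and -0.33 in HET, by edgeR quasi-likelihood with Benjamini-Hochberg adjustment. The other log2 values were 0.61 (Chat), -0.45 (Slc5a7), 0.23 (Ache), 0.12 (Chrna4), -0.09 (Chrna6), 0.19 (Chrnb2) and 0.05 (Chrnb3) in HET, and 0.05 (Chat), -0.44 (Slc5a7), 0.23 (Ache), -0.14 (Chrna4), -0.19 (Chrna6), 0.09 (Chrnb2) and -0.28 (Chrnb3) in HOM. Habenula markers summed to 76.9 ± 18.8, 69.2 ± 8.001 and 59.4 ± 6.87 cpm in WT, HET and HOM, and 3 and 4 of 4 tested were lower (median -0.15 and -0.45, 0 and 0 called). In WT the habenula list was about as high in PFC, so it does not mark habenula tissue alone. Dopamine neuron markers summed to 4366 ± 618, 4268 ± 651 and 3738 ± 1087 cpm, and 5 and 9 of 13 were lower (median 0.18 and -0.02). Oligodendrocyte markers summed to 27336 ± 5752, 23032 ± 3034 and 21943 ± 3339.5 cpm, and 10 and 10 of 10 were lower (median -0.40 and -0.41), with 0 genes of either list called. The part of these lists in the Chrna3 and Chrna5 levels was not tested.

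The library N_SN_HET_4566 stood apart in this region, with 6.05 cpm of Chat and 9.37 cpm of Slc5a7, and with striatal projection neuron markers summing to 1873 cpm against a group median of 337 cpm. Similarly, the AAV-Cre library A_SN_WT_3587 had 3.13 cpm of Chat, 5.32 cpm of Slc5a7 and 1059 cpm of these markers, against a group median of 368 cpm. Without N_SN_HET_4566 the Nestin-Cre SN differences of HET turned from 0.61 to -0.12 for Chat and moved from -0.45 to -1.13 for Slc5a7 (adjusted p = 0.905 and 0.494, edgeR quasi-likelihood, Benjamini-Hochberg). Without N_SN_HOM_4569, which had 6.35 cpm of Slc5a7, those of HOM were -0.29 for Chat and -0.82 for Slc5a7, in place of 0.05 and -0.44. Striatal projection neuron markers summed to 341 cpm in N_SN_HOM_4569, within the 253 to 426 cpm of its group. Whether striatal tissue entered N_SN_HET_4566 or A_SN_WT_3587 was not tested, nor was the reason for the Slc5a7 level of N_SN_HOM_4569.

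**Figure D3:**
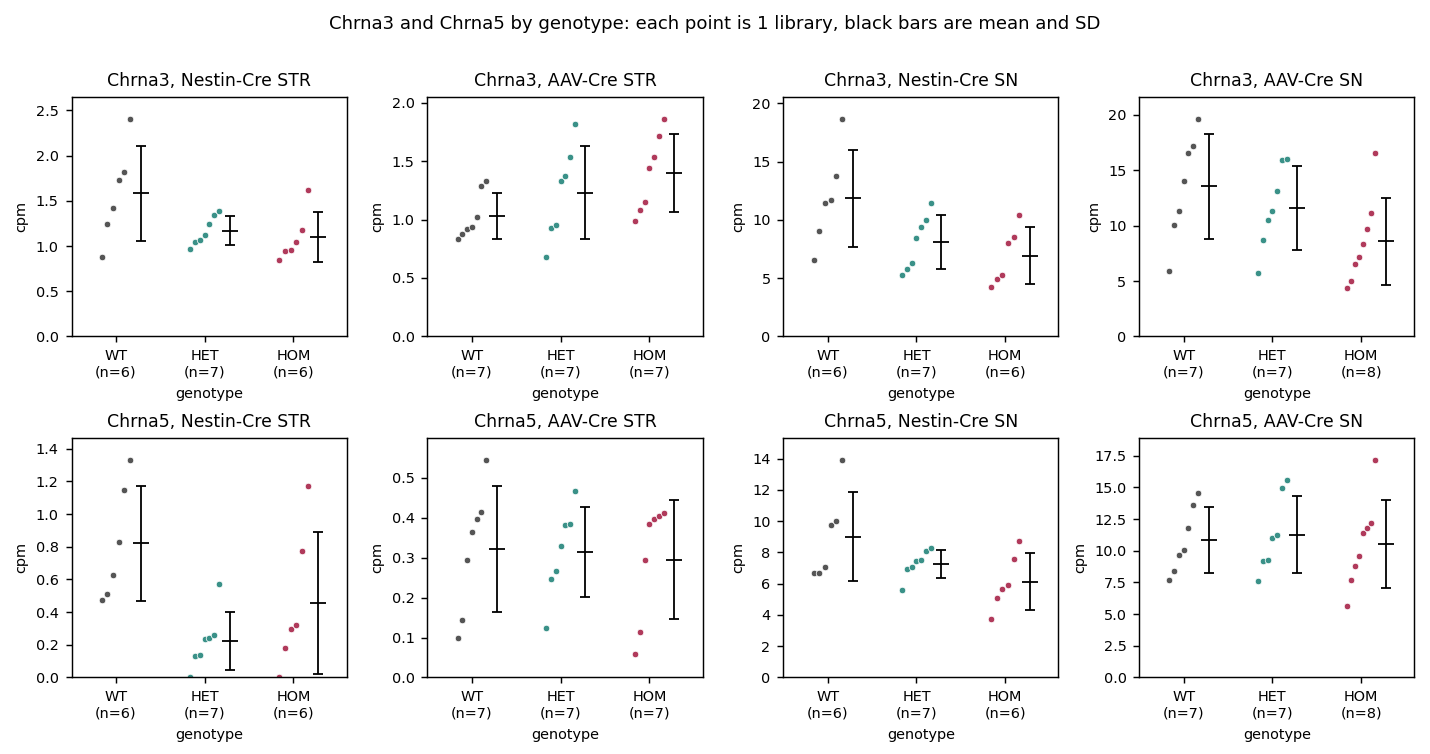
Chrna3 and Chrna5 in STR and SN of both models by genotype, in cpm. Each point is a library, and bars give mean and SD.

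In AAV-Cre PFC no member was called. Of 9 members tested (Chrna6 lay below the filter), 0 were called in HET and 0 in HOM by edgeR quasi-likelihood with Benjamini-Hochberg adjustment, beside 0% and 0.0137% of all 14628 genes (0 and 2 genes). At an unadjusted p under 0.05 there were 1 and 0 members by edgeR quasi-likelihood, beside 12.3% and 14.2% of all genes. DESeq2 called 0 and 0 members (beside 0.0410% and 1.26% of all genes) and the edgeR likelihood ratio test 0 and 0 (beside 1.70% and 2.93%). The median log2 difference over members was 0.09 in HET and 0.05 in HOM, beside 0.00 and 0.00 over all genes, with 2 and 3 of 9 members lower. Chrna5 was at 1.45, 2.38 and 4.82 cpm (lowest, median and highest) in WT, 2.12, 3.79 and 4.51 cpm in HET and 2.26, 3.56 and 4.56 cpm in HOM. Ranges overlapped. The log2 difference of Chrna5 in HET was 0.46 (SE 0.223; higher than the mean of WT in 6 of 7 libraries; adjusted p = 0.401, 0.182 to 0.695 over 26 alternatives), by edgeR quasi-likelihood with Benjamini-Hochberg adjustment. Chat was at 1.47, 4.46 and 7.38 cpm (lowest, median and highest) in WT, 2.45, 4.07 and 6.38 cpm in HET and 1.34, 3.14 and 7.21 cpm in HOM. Slc5a7 was at 2.12, 6.12 and 11.1 cpm (lowest, median and highest) in WT, 3.95, 8.01 and 12.7 cpm in HET and 3.66, 5.98 and 10.9 cpm in HOM. These overlapped throughout. The other log2 values were -0.22 (Chat), -0.45 (Slc18a3), 0.20 (Slc5a7), 0.07 (Ache), 0.13 (Chrna3), 0.08 (Chrna4), 0.09 (Chrnb2) and 0.26 (Chrnb3) in HET, and -0.31 (Chat), -0.35 (Slc18a3), 0.06 (Slc5a7), 0.02 (Ache), -0.47 (Chrna3), 0.14 (Chrna4), 0.35 (Chrna5), 0.05 (Chrnb2) and 0.08 (Chrnb3) in HOM. Chrna3 reached 1 cpm in 2 of 7 WT, 4 of 7 HET and 2 of 8 HOM libraries. Without A_PFC_WT_3576, which had 2.97 cpm of Chrna3, its HOM difference was 0.03. Without A_PFC_WT_3578 Chrna4 was called in HOM, at 0.22 (adjusted p = 0.0811, edgeR quasi-likelihood, Benjamini-Hochberg), beside 371 of all 14617 genes. Striatal projection neuron markers summed to 1237 ± 457, 1189 ± 282 and 1084 ± 402 cpm in WT, HET and HOM (median log2 -0.04 and -0.17).

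In AAV-Cre STR, the injected region, no member was called, and Chrna3 averaged higher in HET and HOM than in WT. Of 7 members tested (Chrna5, Chrna6 and Chrnb3 lay below the filter), 0 were called in HET and 0 in HOM by edgeR quasi-likelihood with Benjamini-Hochberg adjustment, beside 0% and 0% of all 14655 genes (0 and 0 genes). At an unadjusted p under 0.05 there were 1 and 1 members by edgeR quasi-likelihood, beside 1.71% and 4.58% of all genes. DESeq2 called 0 and 0 members (beside 0% and 0.0341% of all genes) and the edgeR likelihood ratio test 0 and 0 (beside 0.382% and 1.19%). The median log2 difference over members was 0.01 in HET and -0.03 in HOM, beside 0.00 and 0.00 over all genes, with 3 and 4 of 7 members lower. Chrnb2 was at 66.8, 69.7 and 74.4 cpm (lowest, median and highest) in WT, 71.3, 75.7 and 78.8 cpm in HET and 68.4, 69.7 and 77.9 cpm in HOM. Chrna3 was at 0.834, 0.935 and 1.33 cpm (lowest, median and highest) in WT, 0.676, 1.33 and 1.82 cpm in HET and 0.989, 1.44 and 1.86 cpm in HOM. Ranges overlapped for both genes, although 4 of 7 HOM libraries lay above all WT libraries for Chrna3. The log2 difference was 0.10 (SE 0.0369; higher than the mean of WT in 7 of 7 libraries; adjusted p = 1.00, 1.00 to 1 over 26 alternatives) for Chrnb2 in HET and 0.45 (SE 0.203; higher than the mean of WT in 6 of 7 libraries; adjusted p = 1.00, 0.904 to 1.00 over 26 alternatives) for Chrna3 in HOM, by edgeR quasi-likelihood with Benjamini-Hochberg adjustment. The other log2 values were 0.01 (Chat), -0.15 (Slc18a3), -0.01 (Slc5a7), -0.01 (Ache), 0.28 (Chrna3) and 0.21 (Chrna4) in HET, and -0.11 (Chat), -0.09 (Slc18a3), -0.09 (Slc5a7), -0.03 (Ache), 0.06 (Chrna4) and 0.04 (Chrnb2) in HOM. Chrna5 averaged 0.322, 0.314 and 0.295 cpm in WT, HET and HOM. Habenula markers ran over 12.2 to 26.1 cpm in WT, 13.6 to 21.3 cpm in HET and 16.2 to 29.1 cpm in HOM. Thalamic and midbrain excitatory neuron markers ran over 10.6 to 59.5, 13.5 to 79.2 and 23.3 to 78.7 cpm. The part of either list in the Chrna3 level was not tested.

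In AAV-Cre SN no member was called, and Chrna3 again averaged lowest in HOM. Of 9 members tested (Slc18a3 lay below the filter), 0 were called in HET and 0 in HOM by edgeR quasi-likelihood with Benjamini-Hochberg adjustment, beside 0% and 0% of all 14813 genes (0 and 0 genes). At an unadjusted p under 0.05 there were 0 and 1 members by edgeR quasi-likelihood, beside 4.69% and 7.49% of all genes. DESeq2 called 0 and 0 members (beside 0.00675% and 0.0675% of all genes) and the edgeR likelihood ratio test 1 and 1 (beside 2.19% and 1.47%). The median log2 difference over members was -0.01 in HET and -0.03 in HOM, beside 0.00 and 0.01 over all genes, with 5 and 5 of 9 members lower. Chrna3 was at 5.88, 14.1 and 19.6 cpm (lowest, median and highest) in WT, 5.70, 11.3 and 16.0 cpm in HET and 4.40, 7.74 and 16.6 cpm in HOM. Ranges overlapped. Its log2 difference in HOM was -0.66 (SE 0.274; lower than the mean of WT in 7 of 8 libraries; adjusted p = 0.636, 0.00281 to 0.774 over 27 alternatives), by edgeR quasi-likelihood with Benjamini-Hochberg adjustment, and the edgeR likelihood ratio test called it (adjusted p = 0.00281, Benjamini-Hochberg). That test also called Chrna6 in HET, at 0.32 (SE 0.162; higher than the mean of WT in 5 of 7 libraries; adjusted p = 0.00144, against 0.946 by edgeR quasi-likelihood and 0.00144 to 1.00 over 27 alternatives, Benjamini-Hochberg), with Chrna6 at 114, 139 and 209 cpm in WT and 151, 187 and 290.1 cpm in HET. The other log2 values were -0.41 (Chat), -0.19 (Slc5a7), -0.01 (Ache), -0.22 (Chrna3), 0.19 (Chrna4), 0.06 (Chrna5), -0.02 (Chrnb2) and 0.20 (Chrnb3) in HET, and -0.31 (Chat), -0.58 (Slc5a7), 0.08 (Ache), 0.01 (Chrna4), -0.04 (Chrna5), 0.16 (Chrna6), 0.01 (Chrnb2) and -0.03 (Chrnb3) in HOM. The WT library A_SN_WT_3587 carried much of the differences in Chat and Slc5a7: without it they were -0.09 and 0.16 in HET and 0.00 and -0.23 in HOM. Dopamine neuron markers summed to 4342 ± 1015, 5009 ± 1112 and 4252 ± 638 cpm in WT, HET and HOM, and habenula markers to 86.4 ± 17.3, 82.0 ± 6.18 and 74.3 ± 11.6 cpm, and their part in these levels was not tested.

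Whether the genotype difference itself changed between regions or models was tested for members that reached the level of the filter in WT of each region or model compared. By edgeR quasi-likelihood with Benjamini-Hochberg adjustment, 0 of 6 such members were called across the regions of Nestin-Cre, beside 0% of all genes, and 0 of 5 across those of AAV-Cre, beside 0.00648%. Across models the counts were 0 of 7 in PFC, 0 of 7 in STR and 0 of 9 in SN, beside 1.99%, 0.0135% and 0%. An unadjusted p under 0.05 was reached by 0, 0, 1, 1 and 0 of them, in the same order, beside 4.37, 6.82, 15.6, 9.52 and 6.73% of all genes. The edgeR likelihood ratio test called 2, 0, 1, 1 and 0 (beside 3.98, 3.72, 4.74, 5.58 and 3.71% of all genes), namely Chat and Chrna4 across Nestin-Cre regions, and Slc5a7 in PFC and Chrna4 in STR across models. Of these, Chat reached 1 cpm in fewer than 3 libraries of Nestin-Cre PFC HET and of HOM. DESeq2 was not run for these comparisons.

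Library to library, over all genotypes, members were correlated with each other and with marker genes within STR and SN. Of 18 pairs, 8 had a Benjamini-Hochberg adjusted permutation p under 0.05 for the Pearson correlation. In Nestin-Cre STR (19 libraries) Chat and Slc5a7 gave r = 0.843 (Spearman 0.763; adjusted permutation p = 0.00104 and 0.00634; 0.689 without the 2 farthest libraries), whereas in AAV-Cre STR (21 libraries) they gave 0.330 (Spearman 0.349; adjusted permutation p = 0.295 and 0.198; 0.365 without the 2 farthest libraries). Chat with Slc18a3 gave 0.171 (Spearman 0.347; adjusted permutation p = 0.355 and 0.198; 0.112 without the 2 farthest libraries) and 0.293 (Spearman 0.208; adjusted permutation p = 0.307 and 0.423; 0.201 without the 2 farthest libraries), Nestin-Cre first. In the same order, Chat with Ache gave 0.361 and 0.407, and Chat with Lhx8 0.527 and 0.166 (adjusted permutation p = 0.223, 0.122, 0.0612 and 0.449). Without the 2 farthest libraries these were 0.387 and 0.260 for Ache and 0.569 and -0.0408 for Lhx8.

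Dopamine neuron markers summed to 2207 to 5284 cpm over Nestin-Cre SN HOM libraries and to 4099 to 7233 cpm over AAV-Cre SN HET libraries. The part of the amount of nigral tissue per library in the correlations below was not tested. In SN, Chrna6 varied together with dopamine neuron genes between libraries. In Nestin-Cre (19 libraries) its correlation with Th was 0.867 (Spearman 0.730; adjusted permutation p = 7.65e-04 and 0.00634; 0.700 without the 2 farthest libraries), with Slc6a3 0.811 (Spearman 0.686; adjusted permutation p = 0.00153 and 0.0151; 0.613 without the 2 farthest libraries) and with Chrnb3 0.564 (Spearman 0.5684; adjusted permutation p = 0.0587 and 0.0679; 0.469 without the 2 farthest libraries). In AAV-Cre (22 libraries) these were 0.930 (Spearman 0.913; adjusted permutation p = 6.00e-05 and 6.00e-05; 0.907 without the 2 farthest libraries), 0.898 (Spearman 0.866; adjusted permutation p = 6.00e-05 and 6.00e-05; 0.866 without the 2 farthest libraries) and 0.863 (Spearman 0.903; adjusted permutation p = 6.00e-05 and 6.00e-05; 0.825 without the 2 farthest libraries), from an unadjusted permutation p of 1.00e-05, the smallest that 100000 permutations can give. Chrna3 and Chrna5 gave 0.521 (Spearman 0.451; adjusted permutation p = 0.0693 and 0.135; 0.331 without the 2 farthest libraries) and 0.372 (Spearman 0.439; adjusted permutation p = 0.1501 and 0.0949; 0.451 without the 2 farthest libraries), Nestin-Cre first. Chat and Slc5a7 gave 0.692 (Spearman 0.504; adjusted permutation p = 0.0214 and 0.0754; 0.265 without the 2 farthest libraries) and 0.655 (Spearman 0.338; adjusted permutation p = 0.0449 and 0.198; 0.244 without the 2 farthest libraries), so this pair rested on the 2 farthest libraries.

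Over the 18 group means, and among 15180 genes, those most like Chat were Slc18a3 (r = 0.995), Rgs9 (0.993), Lhx8 (0.993), Gpr6 (0.992) and Slc5a7 (0.992), while Ache gave -0.179. Those most like Chrna6 were Slc6a3 (0.999), Pax8 (0.998), Foxa1 (0.997), B930025P03Rik (0.997) and Tmem207 (0.997). Th came at place 19 (0.993), Chrnb3 at 153 (0.978) and Chrna3 at 203 (0.974). This likeness is a description of regional pattern and carries no test.

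Other genes of the cholinergic pathway were read beside the members. In STR against PFC, SN against PFC and SN against STR of WT mice, genes called by edgeR quasi-likelihood were again counted among those at the level of the filter in both regions, and the shares of all genes that met this rule were those given above, 65.5% to 79.0%. The counts were 0 of 2, 1 of 1 and 0 of 1 in Nestin-Cre, then 1 of 1, 2 of 2 and 1 of 2 in AAV-Cre for 10 other nicotinic subunit genes, most of which lay below the filter. Chrnd had no count in any WT group. For 5 muscarinic receptor genes they were 3 of 4, 3 of 4 and 4 of 5 in Nestin-Cre, then 2 of 4, 4 of 4 and 5 of 5 in AAV-Cre, and for 7 nicotinic receptor accessory genes 4 of 7, 4 of 7 and 6 of 7 in Nestin-Cre, then 5 of 7, 4 of 7 and 7 of 7 in AAV-Cre. The 3 genes of butyrylcholinesterase and cholinesterase anchors gave 1 of 3, 3 of 3 and 3 of 3 in Nestin-Cre, then 2 of 2, 2 of 2 and 2 of 3 in AAV-Cre, and 9 genes of choline uptake and use 4 of 7, 5 of 7 and 7 of 7 in Nestin-Cre, then 3 of 7, 5 of 7 and 6 of 7 in AAV-Cre. Over the 12 comparisons of genotype with WT, the median log2 difference ranged from -0.28 to 0.45 for the other subunits, -0.31 to 0.22 for muscarinic receptors and -0.09 to 0.09 for accessory genes. It ranged from -0.33 to 0.13 for the cholinesterase group and -0.05 to 0.16 for choline uptake and use. The only gene called by genotype in these lists was Slc44a1, a choline transporter-like gene, in Nestin-Cre PFC HOM, at -0.39 (SE 0.0793; all 4 HOM libraries, at 52.3 to 66.8 cpm, lay under the lowest of the WT libraries, at 67.0 to 86.4 cpm; adjusted p = 0.0574, edgeR quasi-likelihood, Benjamini-Hochberg). This call was not held at an adjusted p under 0.05, nor with only WT and HOM libraries fitted (adjusted p = 0.141), and it was lost in 4 of 18 refits that left out a library (adjusted p 0.0451 to 0.317 over all, edgeR quasi-likelihood, Benjamini-Hochberg). DESeq2 and the edgeR likelihood ratio test also called Slc44a1 there (adjusted p = 0.00221 and 0.00445, Benjamini-Hochberg). Oligodendrocyte markers were lower in 10 of 10 in the same comparison, with a median log2 of -0.41, and their part in the Slc44a1 level was not tested.

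Genes of the cell marker lists called by edgeR quasi-likelihood were counted by the same rule, in the order STR against PFC, SN against PFC and SN against STR. The all-gene shares under that rule were 68.6%, 79.0% and 76.1% for Nestin-Cre, then 65.5%, 74.0% and 75.4% for AAV-Cre, and several lists lay at or below these shares. Striatal projection neuron markers numbered 10 of 10, 9 of 10 and 10 of 10 in Nestin-Cre, then 10 of 10, 10 of 10 and 10 of 10 in AAV-Cre. Dopamine neuron markers numbered 3 of 6, 6 of 7 and 5 of 6 in Nestin-Cre, then 3 of 5, 5 of 5 and 7 of 7 in AAV-Cre. Cortical excitatory neuron markers numbered 8 of 8, 5 of 5 and 1 of 5 in Nestin-Cre, then 7 of 7, 6 of 6 and 3 of 5 in AAV-Cre. Thalamic and midbrain excitatory neuron markers numbered 2 of 3, 3 of 3 and 3 of 3 in Nestin-Cre, then 2 of 3, 3 of 3 and 3 of 3 in AAV-Cre. Forebrain cholinergic neuron markers numbered 4 of 5, 3 of 5 and 4 of 6 in Nestin-Cre, then 7 of 8, 4 of 7 and 6 of 7 in AAV-Cre. Habenula markers numbered 2 of 3, 2 of 3 and 2 of 3 in Nestin-Cre, then 2 of 3, 2 of 3 and 2 of 3 in AAV-Cre. Oligodendrocyte markers numbered 10 of 10, 10 of 10 and 10 of 10 in Nestin-Cre, then 10 of 10, 10 of 10 and 9 of 10 in AAV-Cre. Astrocyte markers numbered 3 of 5, 5 of 5 and 5 of 5 in Nestin-Cre, then 3 of 5, 4 of 5 and 5 of 5 in AAV-Cre. Microglia markers numbered 4 of 5, 2 of 5 and 2 of 5 in Nestin-Cre, then 1 of 5, 4 of 5 and 5 of 5 in AAV-Cre. Endothelial markers numbered 4 of 4, 2 of 4 and 3 of 4 in Nestin-Cre, then 3 of 4, 0 of 4 and 3 of 4 in AAV-Cre. Choroid plexus markers numbered 2 of 2, 2 of 2 and 1 of 3 in Nestin-Cre, then 2 of 2, 1 of 2 and 2 of 3 in AAV-Cre. Olfactory bulb markers numbered 2 of 2, 2 of 2 and 1 of 2 in Nestin-Cre, then 1 of 2, 2 of 2 and 1 of 2 in AAV-Cre. Between genotypes no marker gene was called by edgeR quasi-likelihood. Median log2 differences of the marker lists over the 12 comparisons with WT ranged from -0.41 to 0.14 for oligodendrocytes, -0.23 to 0.28 for astrocytes, -0.31 to 0.06 for microglia and -0.29 to 0.49 for endothelial cells. The widest range was that of choroid plexus, -0.74 to 4.10, whose genes are high in few libraries.

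Several members are neighbours in the mouse genome (mm10). Slc18a3, at chr14:32462437-32464850 (minus strand) in a single exon block, lies within the first intron of Chat, at chr14:32408203-32465909 (minus strand) in 16 exon blocks. They share no exon base, so no exon base counts for both. Chrna5, at chr9:54980880-55007779 (plus strand), and Chrna3, at chr9:55011343-55026559 (minus strand), lie tail to tail 3563 bases apart, and Chrnb3, at chr8:27368711-27399730 (plus strand), and Chrna6, at chr8:27403212-27413944 (minus strand), lie tail to tail 3481 bases apart, with no gene between either pair. Slc5a7 is at chr17:54273590-54299034 (minus strand), Ache at chr5:137288254-137294466 (plus strand), Chrna4 at chr2:181022311-181039177 (minus strand) and Chrnb2 at chr3:89753448-89764632 (minus strand). Chrnb2 shares 8 exon bases with Adar on the opposite strand. Each of the 6 receptor genes has 6 exon blocks.

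**Figure D4:**
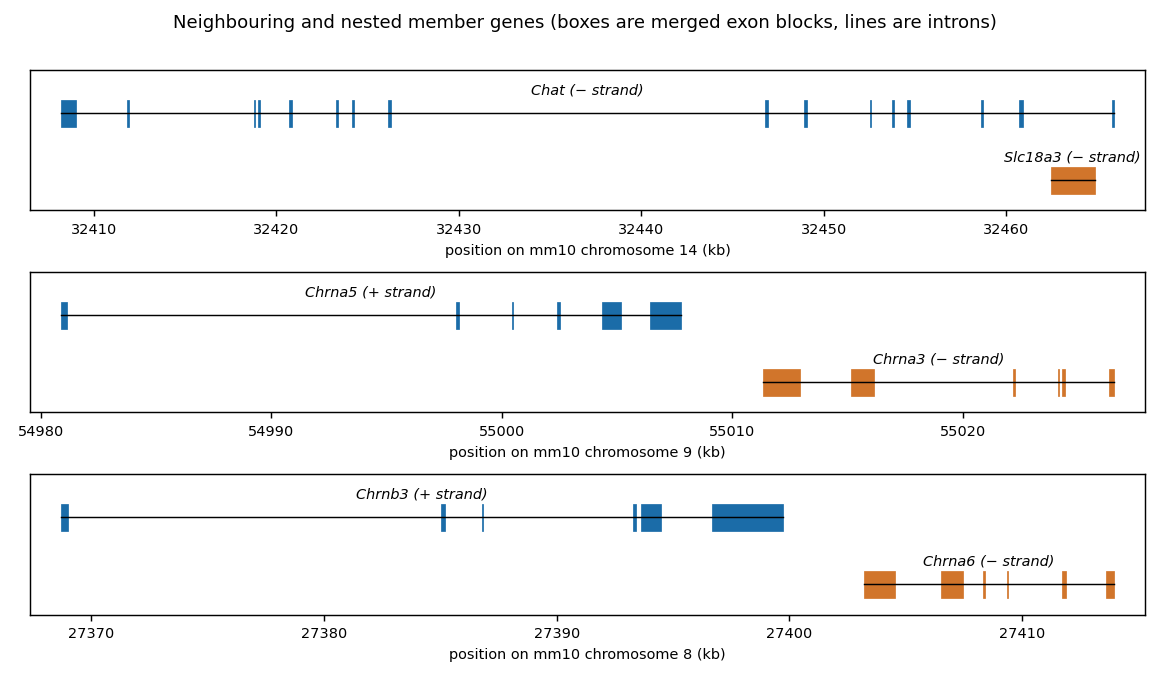
Exon blocks (boxes) and introns (lines) of Chat with Slc18a3, Chrna5 with Chrna3, and Chrnb3 with Chrna6 in mm10, with the strand of each gene.

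Chat, Slc18a3 and Slc5a7, which shared the striatal pattern, were read in their promoters, taken as 300 bases from 250 before to 50 after the RefSeq start in GRCm38.p6. Of 32851 promoters so taken, the median held 52.7% G and C and 7 CpG, and 1.79% held TGACGTCA, 13.6% TATAAA, 37.4% CCAAT, 35.7% GGGCGG, 58.0% TAAT and 72.3% CANNTG, on either strand. The promoter of Chat, chr14:32465860-32466159 (minus strand, 55.7% G and C, 10 CpG), held CCAAT 2 times and CANNTG 2 times. That of Slc18a3, chr14:32464801-32465100 (minus strand, 67% G and C, 27 CpG), held GGGCGG 2 times, TAAT 1 time and CANNTG 1 time, and that of Slc5a7, chr17:54298985-54299284 (minus strand, 44.7% G and C, 1 CpG), TATAAA 1 time and CANNTG 4 times. None held TGACGTCA, and no listed motif other than CANNTG was in all 3. A match is a description of sequence, and its use was not tested. In the sequences, capitals mark matches to CCAAT, to TATAAA and to GGGCGG.
Chat: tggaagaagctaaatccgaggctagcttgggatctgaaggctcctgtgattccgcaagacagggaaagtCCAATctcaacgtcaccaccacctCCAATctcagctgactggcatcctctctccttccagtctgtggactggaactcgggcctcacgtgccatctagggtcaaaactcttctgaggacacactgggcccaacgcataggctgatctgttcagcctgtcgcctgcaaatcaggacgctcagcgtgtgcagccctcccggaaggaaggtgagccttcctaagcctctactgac
Slc18a3: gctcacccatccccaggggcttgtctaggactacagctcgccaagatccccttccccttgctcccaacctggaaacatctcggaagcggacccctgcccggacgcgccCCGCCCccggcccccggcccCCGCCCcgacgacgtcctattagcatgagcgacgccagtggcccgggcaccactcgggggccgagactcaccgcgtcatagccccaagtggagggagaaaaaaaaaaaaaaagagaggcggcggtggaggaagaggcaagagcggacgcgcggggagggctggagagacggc
Slc5a7: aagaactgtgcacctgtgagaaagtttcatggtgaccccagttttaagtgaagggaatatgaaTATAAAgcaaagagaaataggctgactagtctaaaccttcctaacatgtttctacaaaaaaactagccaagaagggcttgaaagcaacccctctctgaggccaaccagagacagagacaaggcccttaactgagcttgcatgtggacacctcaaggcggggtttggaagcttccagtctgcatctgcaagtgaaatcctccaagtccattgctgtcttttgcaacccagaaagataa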

How the data were processed

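The raw gene counts deposited by the authors were used (75-base single-end reads, bcl2fastq 2.20.0.422, STAR 2.5.2b, featureCounts 1.5.1, mm10), with all 121 libraries and 24412 genes. The strand setting of the counting was not found in the text available. Depth was 9869584 to 26750905 counts per library. Levels are cpm of the library total. Tests used edgeR 4.0.16 in R 4.3.3: TMM scaling, a filter of 1 cpm or more in 3 or more libraries, trended dispersion, quasi-likelihood F test, and Benjamini-Hochberg adjustment over all genes of a fit, called at an adjusted p under 0.1. Genotypes were fitted per model and region, and WT regions per model. The SE is the absolute log2 difference over the root of F. Alternatives were DESeq2 1.42.0, the edgeR likelihood ratio test, DESeq2 size factors, no filter, only the 2 genotypes compared, an adjusted p under 0.05, leaving out the mouse of conflicting labels, mouse as a block, and leaving out single libraries in 45 refits. Leaving out every other library of the genotype fits (117 refits) and refitting Slc44a1 in the same ways were added after the data were seen, as was the rule that region counts hold only genes at the level of the filter in both regions, and counts across regions or models only members at that level in WT of each. Levels, correlations and pooled ratios used Python 3.11.15 with numpy 2.4.6, scipy 1.17.1 and pandas 2.3.3. Correlations used log2 of cpm plus 0.5 after subtraction of each genotype group mean, with 100000 permutations within genotype groups.

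Members, and the lists read beside them, were chosen with earlier results of these data known. In genotype comparisons a member is named with its test where its unadjusted p was under 0.05, except Chrna5 in Nestin-Cre STR HET, which has a pooled ratio instead, and Chrna6 in AAV-Cre SN was added after its values were seen. The lists were other nicotinic subunits, muscarinic receptors, nicotinic receptor accessory proteins, cholinesterase and its anchors, choline uptake and use, and markers of striatal and basal forebrain cholinergic neurons, cranial motor neurons, habenula, midbrain dopamine neurons, striatal projection neurons, cortical excitatory neurons, thalamus and midbrain excitatory neurons, oligodendrocytes, astrocytes, microglia, endothelial cells, choroid plexus and olfactory bulb.

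Mouse numbers pair libraries of an animal. After group means were removed, the median correlation of libraries of the same mouse was 0.279 (PFC with STR), 0.180 (PFC with SN) and 0.241 (STR with SN) for Nestin-Cre, and 0.257, 0.181 and 0.202 in AAV-Cre. Between different mice the medians lay between -0.0142 and -0.00136. Within groups the lowest ratio of replicate variance to counting variance was 4.49, so replicates differed by more than counting.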

Additional observations from a re-analysis of the deposited data

Results flagged for a closer look

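Within each group, on log2 of cpm plus 0.5, the gap between the highest or lowest library of a member and its nearest neighbour was taken as a share of the group's range (the Dixon ratio). Of 151 groups, 6 held a library beyond the 5% limit of that ratio, and chance alone flags about 1 in 20 groups. Chat was the highest of its group in N_SN_HET_4566, at 6.05 cpm, with the next at 1.42 cpm (ratio 0.718). Slc5a7 was the highest of its group in N_SN_HET_4566, at 9.37 cpm, with the next at 2.57 cpm (ratio 0.583). Slc5a7 was the highest of its group in N_SN_HOM_4569, at 6.35 cpm, with the next at 2.69 cpm (ratio 0.705). Ache was the lowest of its group in A_SN_HOM_3570, at 220.2 cpm, with the next at 257 cpm (ratio 0.598). Chrna5 was the lowest of its group in A_PFC_HET_3652, at 2.12 cpm, with the next at 3.33 cpm (ratio 0.586). Chrnb2 was the highest of its group in A_PFC_HOM_3607, at 77.9 cpm, with the next at 72.2 cpm (ratio 0.590). All these libraries were kept, and none of the members was called by genotype in these groups. The striatal marker level of N_SN_HET_4566 is given above, and the reason for the other values was not tested.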

How the results depend on the processing

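Between genotypes 0 members were called by edgeR quasi-likelihood in every comparison. The edgeR likelihood ratio test called 2 in Nestin-Cre PFC HET (Chat, Slc5a7), 1 in Nestin-Cre PFC HOM (Chat, which reached 1 cpm in fewer than 3 HET and fewer than 3 HOM libraries there), 1 in Nestin-Cre STR HET (Chrna5, which passed the filter through no HET library), 1 in Nestin-Cre SN HOM (Chrna3), 1 in AAV-Cre SN HET (Chrna6) and 1 in AAV-Cre SN HOM (Chrna3). It also called 4 across Nestin-Cre regions and 1, 1 and 1 across models in PFC, STR and SN, or 2, 1, 1 and 0 without Slc18a3 and Chrna5, which lay below the level of the filter in a group compared. DESeq2 called 1 in Nestin-Cre PFC HET (Slc5a7) and 1 in Nestin-Cre STR HET (Chrna5), and leaving out the mouse of conflicting labels gave 1 in Nestin-Cre PFC HET (Slc5a7). Leaving out single libraries, added after the data were seen, gave 0 to 1 members in Nestin-Cre PFC HET (Slc5a7, without N_PFC_WT_4575), 0 to 2 in Nestin-Cre STR HET (Chat and Slc5a7 without N_STR_HET_4579, Slc18a3 without N_STR_WT_4612), 0 to 1 in AAV-Cre PFC HOM (Chrna4, without A_PFC_WT_3578) and 0 elsewhere. No call was reversed, and the cause of these changes was not tested.

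All-gene counts moved far more. For HET and HOM edgeR quasi-likelihood gave 0 and 36 (Nestin-Cre PFC), 0 and 0 (Nestin-Cre STR), 0 and 0 (Nestin-Cre SN), 0 and 2 (AAV-Cre PFC), 0 and 0 (AAV-Cre STR), 0 and 0 (AAV-Cre SN). The likelihood ratio test gave 415 and 310 (Nestin-Cre PFC), 1242 and 277 (Nestin-Cre STR), 332 and 119 (Nestin-Cre SN), 248 and 429 (AAV-Cre PFC), 56 and 175 (AAV-Cre STR), 324 and 218 (AAV-Cre SN), and DESeq2 116 and 227 (Nestin-Cre PFC), 535 and 1 (Nestin-Cre STR), 5 and 1 (Nestin-Cre SN), 6 and 184 (AAV-Cre PFC), 0 and 5 (AAV-Cre STR), 1 and 10 (AAV-Cre SN). Only the 2 genotypes compared gave 39 and 5 in Nestin-Cre PFC, 8 in Nestin-Cre STR HET and 1 in AAV-Cre PFC HET. Without the mouse of conflicting labels, 91 genes were called in Nestin-Cre PFC HET. In Nestin-Cre PFC HOM, an adjusted p under 0.05 gave 11 and DESeq2 size factors 55, and in AAV-Cre PFC HOM an adjusted p under 0.05 gave 1. Leaving out single libraries gave 0 to 91, 1 to 126, 0 to 667 and 0 to 371 genes in Nestin-Cre PFC HET, Nestin-Cre PFC HOM, Nestin-Cre STR HET and AAV-Cre PFC HOM, and 0 to 3 in the other comparisons. With no filter, Nestin-Cre SN HOM, AAV-Cre STR HOM and AAV-Cre SN HOM gave 2, 1 and 1. Across regions the likelihood ratio test gave 613 (Nestin-Cre, against 0 by quasi-likelihood) and 575 (AAV-Cre, against 1), and across models 699, 829 and 560 in PFC, STR and SN (against 293, 2 and 0).

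With mouse as a block, and counting members at the level of the filter in both regions, 5 of 6, 6 of 8 and 6 of 6 were called between Nestin-Cre WT regions (STR against PFC, SN against PFC, SN against STR), beside 67.6%, 78.7% and 77.6% of all genes, and 5 of 6, 7 of 7 and 6 of 6 between AAV-Cre regions, beside 68.0%, 76.0% and 77.6%. These counts were the same without the block. Across regions by genotype 0 and 0 members were called, and 0 in place of 1 gene of all was called across AAV-Cre regions. Leaving out single WT libraries gave 4 to 5 such members for Nestin-Cre STR against PFC and 5 to 6 for SN against PFC, where Chat had log2 -0.47 to -0.38 and adjusted p 0.111 to 0.192 over the 5 libraries that mattered. At an adjusted p under 0.05 Chat was not called there (0.0507).

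Slc44a1 in Nestin-Cre PFC HOM was refitted in the same ways after the data were seen. Its call was lost at an adjusted p under 0.05 (0.0574), with only the 2 genotypes compared (0.141) and without N_PFC_HOM_4568 (0.317), N_PFC_HOM_4569 (0.186), N_PFC_WT_4326 (0.112) or N_PFC_WT_4529 (0.112), while its log2 difference stayed between -0.45 and -0.34 without single libraries. The call was kept by DESeq2 (adjusted p = 0.00221) and by the edgeR likelihood ratio test (adjusted p = 0.00445), both with Benjamini-Hochberg adjustment. By edgeR quasi-likelihood it was also kept with DESeq2 size factors (0.0535), with no filter (0.0532) and without the mouse of conflicting labels (0.0619).

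Only 4 HOM libraries were available in Nestin-Cre PFC, several members have few counts, and bulk tissue mixes cell types and neighbouring regions.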
